A study of Mus musculus with 12 samples.

Results

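The 10 genes described here code for parts of 1 signalling route, the gp130 cytokine pathway and the transcription factors at its end. They are the ligands Lif and Il11, the receptor chains Il6ra, Lifr, Osmr and Il6st, the transcription factor Stat3, its inhibitor Socs3, and the C/EBP factors Cebpb and Cebpd. The members were taken by symbol from a table of 24062 genes, and all 10 were found in it. In hearts that lost Lemd2 from cardiomyocytes, Lif, Osmr and Cebpb RNA was 2.87, 2.05 and 2.48 times the level of floxed controls at postnatal day 1 (P1), and Lifr RNA was 0.749 times that level. In adult hearts with a point mutation in Lemd2, no member passed the main test, edgeR. That test called 0 of all 14592 genes in these hearts.

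Cytokines of the interleukin-6 family act through gp130, the shared receptor chain that Il6st encodes. Leukemia inhibitory factor (Lif) signals through a pair of gp130 and the Lif receptor chain Lifr, oncostatin M in the mouse through gp130 and Osmr, and interleukin-6 and interleukin-11 first bind a private receptor chain. The paired chains activate Janus kinases, which phosphorylate STAT3. STAT3 enters the nucleus and induces, among others, Socs3, which shuts the receptor down. In the heart the pathway is known for cardiomyocyte hypertrophy and survival under stress. Cebpb and Cebpd belong to the C/EBP family of leucine zipper factors, which act with STAT3 in acute-phase responses.

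Whole-heart RNA was sequenced from 12 mice in 4 groups of 3, with 1 library per mouse. The adult groups were 2 months old: WT mice and KI/KI mice, which carry the Lemd2 c.T38>G knock-in on both alleles in every cell. The P1 groups were floxed mice, whose Lemd2 alleles carry loxP sites but which lack Cre, and cKO mice, in which Myh6-Cre deletes Lemd2 in cardiomyocytes. Other cells of the cKO heart keep the gene. Lemd2 codes for a protein of the inner nuclear membrane.

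Library totals ranged from 37063669 to 44789753 counts. Lemd2 was at 24.3 to 25.4 CPM in floxed hearts and at 6.59, 13.1 and 11.4 CPM in cKO replicates 4, 5 and 6, and it was at 32.0 to 34.8 CPM in WT and 24.8 to 25.6 CPM in KI/KI hearts. CPM are the counts scaled to library size, here with factors set over all 12 libraries. Replicate 4 of the cKO group stood apart: its Y-linked genes summed to 0.0798 CPM and its Xist was at 612 CPM, against at least 223 CPM of Y-linked RNA and at most 2.02 CPM of Xist in the other hearts. It was also the cKO heart with the least Lemd2. The labels give no sex, and by Y-linked RNA and Xist this was the only heart that read as female. Markers of heart muscle were abundant in all groups, and 7 lung epithelial markers summed to 126 CPM in WT replicate 3, 41.7 in KI/KI replicate 4, 251 and 418 in floxed replicates 1 and 2, 175 in cKO replicate 4 and 23.2 in cKO replicate 6, against at most 3.75 CPM in the other 6 hearts.

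**Figure D1:**
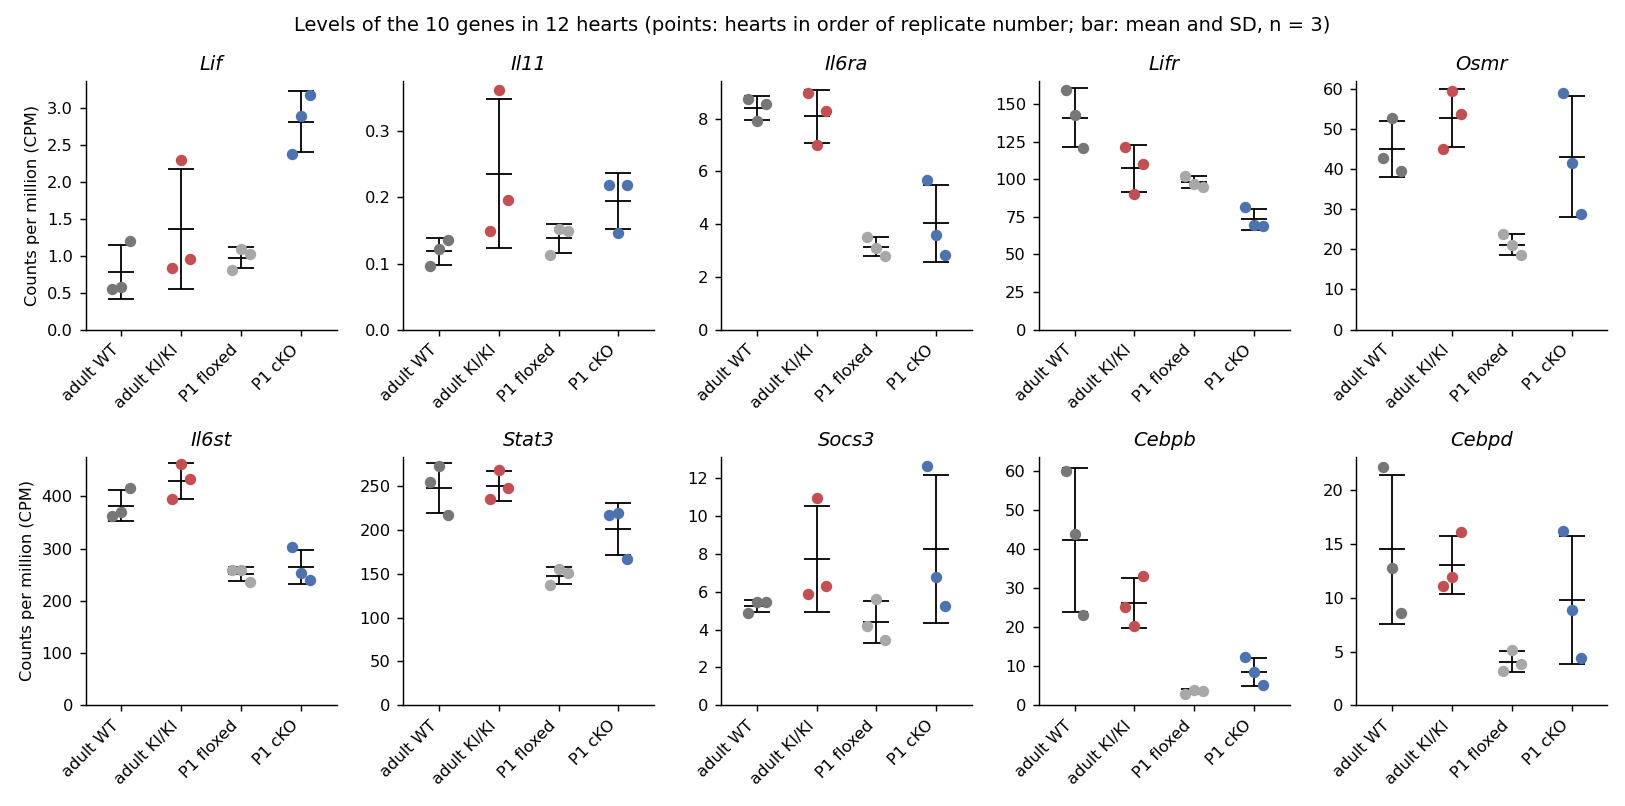
Levels of the 10 genes in each of the 12 hearts. Each panel is a gene, the y axis gives CPM from 0, points are hearts in order of replicate number, and bars are the mean and SD of 3 hearts. Lif in the cKO hearts, at 2.38 to 3.18 CPM, lies above all 9 other hearts, and Cebpb is below 4 CPM in every floxed heart and above 20 CPM in every adult heart.

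The members differed widely in level. Per kilobase of exon, which allows genes to be compared, the mean in WT hearts was 34.5 RPKM for Il6st, 28.2 for Cebpb, 26.02 for Stat3 and 13.1 for Lifr. Cebpd at 3.88, Osmr at 3.71 and Socs3 at 1.82 RPKM were lower, and Il6ra at 0.973, Lif at 0.178 and Il11 at 0.0568 RPKM were the lowest. Thus the shared signalling chain gp130 had the highest mean of the set in WT hearts and the 2 ligands had the lowest. In WT replicate 1 Cebpb, at 39.9 RPKM, was above Il6st, at 32.7 RPKM. In floxed hearts Il6st, at 22.7 RPKM, and Stat3, at 15.5 RPKM, headed the order, while Cebpb was at 2.33 RPKM.

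Lif, the ligand, gave the smallest adjusted p of the members in the P1 hearts. It lies on chromosome 11 of GRCm38, at chr11:4257557-4272514 on the plus strand. Its level was 0.812, 1.09 and 1.02 CPM in floxed replicates 1, 2 and 3 and 2.38, 2.90 and 3.18 CPM in cKO replicates 4, 5 and 6. The groups did not overlap. This gave a log2 fold change of 1.52 (SE 0.21, n = 3 per group, edgeR quasi-likelihood test, adjusted p = 0.00843), and the 95% interval ran from 1.02 to 2.02. These levels rest on 36 to 50 reads per floxed heart and 119 to 139 reads per cKO heart. Here and below, a gene is called changed when its p, adjusted over all genes tested in that comparison, is under 0.05.

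The 250 bases before the annotated RefSeq start of Lif, chr11:4257318-4257567 of GRCm38.p6 on the plus strand, are shown because they hold 1 match to the AP-1 motif TGANTCA, in capitals.

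Lif: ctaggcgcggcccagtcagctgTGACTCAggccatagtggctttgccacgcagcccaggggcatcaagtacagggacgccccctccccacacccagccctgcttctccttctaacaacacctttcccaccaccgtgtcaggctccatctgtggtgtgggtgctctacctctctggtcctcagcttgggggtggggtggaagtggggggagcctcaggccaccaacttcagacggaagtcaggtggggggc

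Il11, the other ligand among the members and a cytokine known for acting on fibroblasts, was near the limit of detection. Its counts were 5, 7 and 7 in floxed and 11, 7 and 9 in cKO hearts, and 3, 4 and 5 in WT and 5, 15 and 7 in KI/KI hearts. It did not pass the filter on low counts, so the main test leaves it out. Without the filter its log2 fold change was 0.49 (SE 0.43, edgeR, adjusted p = 0.505) in the P1 hearts and 1.01 (SE 0.52, edgeR, adjusted p = 0.443) in the adult hearts, so no difference was detectable at this depth.

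Of the receptor chains in P1 hearts, Osmr rose, Lifr fell, and Il6st and Il6ra did not pass the test. Osmr, the chain for oncostatin M, lies at chr15:6813577-6874969 on the minus strand. Its level was 23.7, 21.0 and 18.6 CPM in the floxed hearts and 59.0, 41.4 and 28.8 CPM in the cKO hearts. All cKO hearts were above all floxed hearts, and cKO replicate 4 was the highest. On the log2 scale the change was 1.04 (SE 0.27, edgeR, adjusted p = 0.0410).

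Osmr also holds an AP-1 match, starting at position 4 counted from its annotated RefSeq start, which lies inside the gene span given above. The stretch round the match, chr15:6874293-6874321 of GRCm38.p6 on the minus strand, is printed with the match in capitals.

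Osmr: tgccccgtagtTGATTCAtagctggggcg

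Lifr, the chain for Lif, lies on the same chromosome at chr15:7090614-7197489 on the plus strand. It was at 102, 97.1 and 94.9 CPM in the floxed hearts and at 81.5, 69.7 and 69.2 CPM in cKO hearts, again without overlap. It fell by 0.42 on the log2 scale (SE 0.10, edgeR, adjusted p = 0.0349). Receptor and ligand of the same pair thus moved in opposite directions in the P1 hearts.

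For gp130 itself, Il6st ranged from 237 to 259 CPM in floxed and from 240 to 302 CPM in cKO hearts, which overlap. The log2 fold change of Il6st was 0.08 (95% interval -0.20 to 0.36, edgeR, adjusted p = 0.676). Il6ra, which binds interleukin-6, ranged from 2.79 to 3.52 CPM in floxed and from 2.84 to 5.67 CPM in cKO hearts. Its log2 fold change was 0.38 (SE 0.29, edgeR, adjusted p = 0.385), and without cKO replicate 4 it was 0.03.

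Set against each other per kilobase, Osmr and Lifr give a ratio that was chosen after the values were seen and is described without a test. The ratio of Osmr to Lifr was 0.206, 0.193 and 0.174 in the floxed hearts and 0.643, 0.528 and 0.371 in the cKO hearts. In adults it was 0.238, 0.328 and 0.291 in WT and 0.330, 0.584 and 0.431 in KI/KI hearts. In both models every mutant heart had a higher ratio than every control heart. The mean ratio was 2.69 times higher in cKO than in floxed hearts, and 1.57 times higher in KI/KI than in WT hearts. Leaving out each heart in turn kept the first between 2.35 and 3.07 times and the second between 1.33 and 1.78 times. Higher Osmr and lower Lifr had been seen before the ratio was formed, so the separation and these ranges add no independent support.

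Stat3, the factor that the receptors activate, is on chromosome 11 at chr11:100885098-100939540 on the minus strand. It was at 137, 155 and 151 CPM in the floxed hearts and at 217, 219 and 167 CPM in cKO hearts. The groups did not overlap, but the adjusted p missed the threshold in the edgeR test (log2 fold change 0.45, SE 0.13, adjusted p = 0.0555). DESeq2 called the same difference (adjusted p = 0.0143), as did edgeR with all 12 libraries in one fit (adjusted p = 0.0188). RNA levels do not show the phosphorylation by which STAT3 is activated.

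Socs3, the feedback inhibitor, was at 4.17, 5.63 and 3.45 CPM in the floxed hearts and at 12.7, 6.79 and 5.27 CPM in cKO hearts. The lowest cKO heart lay below the highest floxed heart. The log2 fold change was 0.92 (SE 0.37, edgeR, adjusted p = 0.130), and it was 0.44 without cKO replicate 4.

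The bases before the annotated RefSeq start of Socs3 are shown because Socs3 is the textbook target of STAT3. The 250 bases, chr11:117969367-117969616 of GRCm38.p6 on the minus strand, hold 1 match to the STAT motif TTCNNNGAA, starting at position -154 from the start, in capitals.

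Socs3: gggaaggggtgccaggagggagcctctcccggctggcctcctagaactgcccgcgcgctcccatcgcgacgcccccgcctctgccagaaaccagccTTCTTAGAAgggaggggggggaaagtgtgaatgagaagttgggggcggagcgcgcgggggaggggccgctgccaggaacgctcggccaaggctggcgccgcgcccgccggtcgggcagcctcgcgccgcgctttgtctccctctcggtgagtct

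RefSeq promoters, from 250 bases before to 50 bases after a start, matched 9 of the 10 members in 11 windows, and Cebpd had none. The STAT motif was in 1 of the 11, that of Socs3, and in 8.3% of all 32851 promoters searched. The AP-1 motif was in 3 of the 11, those of Lif and Osmr and the second one of Il11, and in 7.81% of all promoters. No member window held the C/EBP motif TTGCNNAA, which 10.8% of all promoters held. Both strands were searched, and no 2 matches overlapped. A match of letters is a description and not evidence of binding.

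Both C/EBP members lay between 2.89 and 5.13 CPM in the floxed hearts. Cebpb, at chr2:167688915-167690418 on the plus strand, was at 2.89, 3.89 and 3.75 CPM in the floxed hearts and at 12.3, 8.42 and 5.08 CPM in cKO hearts. Every cKO heart was above every floxed heart. Cebpb rose by 1.31 on the log2 scale (SE 0.34, edgeR, adjusted p = 0.0423).

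Cebpd, at chr16:15887286-15891031 on the plus strand, showed a fold of like size with more spread. It was at 3.18, 5.13 and 3.84 CPM in the floxed hearts and at 16.2, 8.83 and 4.37 CPM in cKO hearts. The groups overlapped, since cKO replicate 6 lay within the floxed range. Its log2 fold change was 1.30 (SE 0.47, edgeR, adjusted p = 0.102), and 0.70 without cKO replicate 4. DESeq2 called it (adjusted p = 0.0181).

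In all, 9 members were tested in the P1 hearts, and 3 were called higher and 1 lower. Over the 15317 genes tested, 9.32% were called higher and 7.57% lower. The groups did not overlap for 4 members that were higher in cKO hearts and 1 that was lower, against 19.9% and 19.1% of all genes tested. The median log2 fold change of the 9 was 0.92, against -0.00 over all genes.

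These calls rested on all 6 libraries. Leaving out 1 heart at a time left between 0 and 7 members called. Lif lost its call only without floxed replicate 1 (edgeR, adjusted p = 0.0594), as did all members then. Lifr stayed called without cKO replicate 4 or cKO replicate 6 and lost its call without floxed replicates 1, 2 and 3 (adjusted p = 0.128, 0.0885 and 0.0606) and cKO replicate 5 (0.135). Osmr and Cebpb stayed called only without cKO replicate 6. Without floxed replicates 1, 2 and 3 and cKO replicates 4 and 5, the adjusted p of Osmr was 0.122, 0.121, 0.101, 0.0542 and 0.108, and that of Cebpb was 0.163, 0.109, 0.0880, 0.0657 and 0.114. Without cKO replicate 6, Stat3, Socs3 and Cebpd were called too (adjusted p = 0.00540, 0.0447 and 0.0138). The log2 fold changes of the 4 called members kept their direction throughout.

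**Figure D2:**
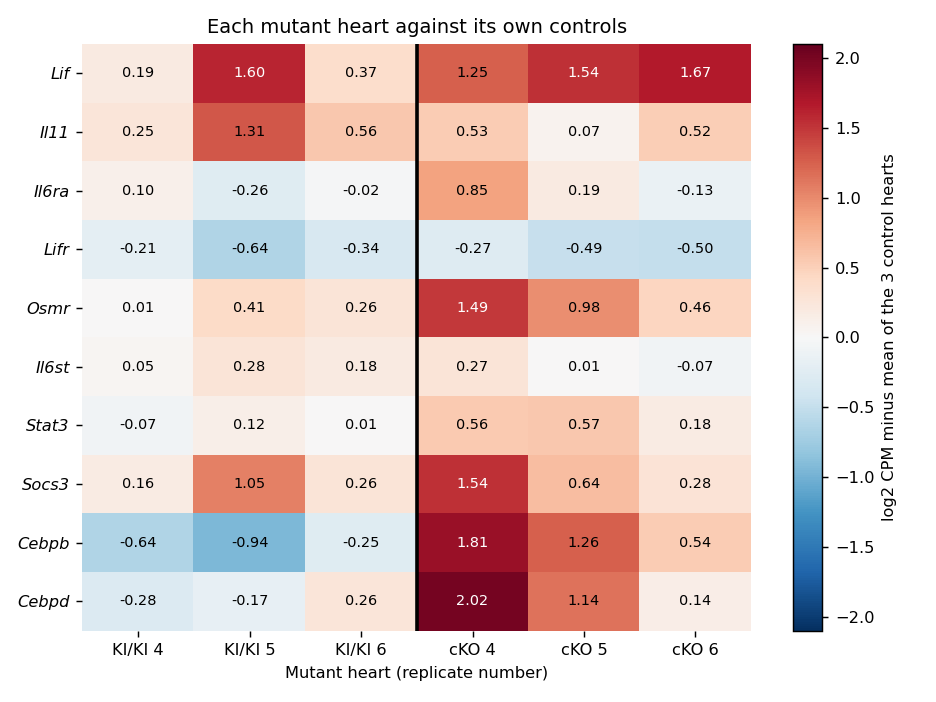
Difference of each mutant heart from the mean of its 3 control hearts, in log2 CPM, for the 10 genes (rows) and 6 mutant hearts (columns). The printed number is the difference, red is higher and blue lower. In cKO replicate 4 Cebpd was 2.02, Cebpb 1.81 and Socs3 1.54 above the floxed mean, against 0.14, 0.54 and 0.28 in cKO replicate 6.

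The 3 cKO hearts were not alike. Replicate 4 was the highest of the 3 for 8 of the 10 members, and replicate 6 the lowest for 8. For Lif the order was the other way, with replicate 4 the lowest and replicate 6 the highest. With the log2 of the summed level of 4 Y-linked genes as a covariate, which separates replicate 4 from the others, Lif and Lifr stayed called, and Osmr (log2 fold change 0.69, edgeR, adjusted p = 0.0677) and Cebpb (0.90, adjusted p = 0.0786) did not.

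Markers of other heart cells moved with the P1 groups. The sum of 6 fibroblast markers was 2733 to 2894 CPM in floxed and 4128 to 4438 CPM in cKO hearts. The list did not move as one: Postn, Col1a1 and Tcf21 were called higher (edgeR, log2 fold change 0.79, 0.56 and 1.05), and Pdgfra, Dcn and Lum, at -0.16, -0.14 and -0.16, did not pass the test. Of 8 macrophage markers 7 were in the table. Their sum was 86.3 to 107 CPM in the floxed hearts and 198, 142 and 103 CPM in cKO replicates 4, 5 and 6. Osmr, Socs3, Cebpb and Cebpd had this order of the cKO hearts, and so had Il6st, Il6ra and Lifr. Of these members Osmr and Cebpb were called higher and Lifr lower, and Socs3, Cebpd, Il6st and Il6ra were not called. Among the macrophage markers Cd68 and Lyz2 were called higher (edgeR, log2 fold change 1.03 and 0.89), and the rest were not called. The sum of 6 cardiomyocyte markers was 34466 to 40527 CPM in floxed and 27501 to 31893 CPM in cKO hearts. Of these Ryr2 and Tnni3 were called lower (edgeR, log2 fold change -0.82 and -0.48). Myh6, Tnnt2 and Myl2, at -0.47, -0.24 and -0.16, and Actn2, at 0.32, were not called. Endothelial markers (5 genes) summed to 955 to 1039 CPM and 1113 to 1425 CPM, and smooth muscle markers (4 genes) to 1116 to 1518 CPM and 1379 to 2737 CPM. In the endothelial list Emcn and Pecam1 were called higher (edgeR, log2 fold change 1.30 and 0.34), and Cdh5, Tie1 and Kdr, at 0.27, 0.10 and -0.07, were not called. In the smooth muscle list Tagln and Cnn1 were called higher (edgeR, log2 fold change 1.30 and 1.32), Myh11 was called lower (-0.65, adjusted p = 0.0494), and Acta2, at 0.53, was not called. Neutrophil markers, 5 of 6 in the table, summed to 9.34 to 15.2 CPM in floxed and 8.52 to 13.97 CPM in cKO hearts. No marker of these lists that was in the table was at 0 in all hearts of a group. In whole hearts fewer cells of a type and less RNA per cell cannot be told apart, and the part of these markers in the members' changes was not tested.

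In adult hearts the same members were tested with KI/KI against WT mice, and none of the 9 was called by edgeR or by DESeq2. At an unadjusted p under 0.05, 1 passed in edgeR, Lifr. Over all 14592 genes tested, edgeR called 0% higher and 0% lower, with 2363 genes at an unadjusted p under 0.05, and DESeq2 called 518 genes. The median log2 fold change of the 9 members was 0.02, and that of all genes was 0.00.

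Lifr was at 160, 143 and 121 CPM in WT replicates 1, 2 and 3 and at 121, 90.2 and 111 CPM in KI/KI replicates 4, 5 and 6. The groups overlapped narrowly, at the lowest WT and the highest KI/KI heart. Their log2 fold change was -0.39 (95% interval -0.71 to -0.07, edgeR, adjusted p = 0.264).

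Socs3 was the only 1 of the 9 tested members whose adult groups did not overlap. It was at 4.89, 5.47 and 5.44 CPM in WT and at 5.899, 10.96 and 6.32 CPM in KI/KI hearts, a log2 fold change of 0.57 (SE 0.26, edgeR, adjusted p = 0.328). Without KI/KI replicate 5 the log2 fold change was 0.22. The groups did not overlap upward for 11.4% of all genes tested and downward for 10.4%. Il11, which was not tested, also had no overlap, at 0.0965 to 0.136 CPM in WT and 0.149 to 0.363 CPM in KI/KI hearts.

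Lif was at 0.547, 0.580 and 1.20 CPM in WT hearts and at 0.834, 2.30 and 0.956 CPM in KI/KI hearts. The high value was again KI/KI replicate 5. The log2 fold change of Lif was 0.83 with a 95% interval from -0.41 to 2.06 (edgeR, adjusted p = 0.443), and 0.18 without that heart.

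Osmr, Il6st, Stat3 and Il6ra overlapped between the adult groups. Osmr was at 39.5 to 52.7 CPM in WT and 45.01 to 59.3 CPM in KI/KI hearts (log2 fold change 0.23, 95% interval -0.09 to 0.56). Il6st was at 363 to 416 CPM and 394 to 463 CPM (0.17, interval -0.06 to 0.40). Stat3 was at 217 to 272 CPM and 235 to 268 CPM, with a log2 fold change of 0.02 and an interval from -0.21 to 0.25. Il6ra was at 7.91 to 8.75 CPM and 7.02 to 8.997 CPM, with -0.05 and an interval from -0.33 to 0.23. In edgeR the smallest adjusted p of these 4 was 0.402, that of Il6st.

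The C/EBP members varied among the adult hearts, with a coefficient of variation of 43.6% for Cebpb and 47.9% for Cebpd in WT and of 24.3% and 20.5% in KI/KI hearts. Cebpb was at 60.1, 43.8 and 23.2 CPM in WT and at 25.3, 20.4 and 33.1 CPM in KI/KI hearts. Cebpd was at 22.2, 12.8 and 8.60 CPM in WT and at 11.1, 11.98 and 16.1 CPM in KI/KI hearts. WT replicate 1 was the highest and WT replicate 3 the lowest for both genes. The log2 fold change of Cebpb was -0.68 (SE 0.34, edgeR, adjusted p = 0.359) and that of Cebpd was -0.14 (SE 0.33, adjusted p = 0.853), and without WT replicate 1 they were -0.35 and 0.29.

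Among the KI/KI hearts, replicate 5 was the highest for 6 of the 10 members, Lif, Il11, Osmr, Il6st, Stat3 and Socs3, and the lowest for Il6ra, Lifr and Cebpb. Fibroblast markers summed to 1266 to 1440 CPM in WT hearts and to 1476, 2410 and 1673 CPM in KI/KI replicates 4, 5 and 6. Macrophage markers summed to 191 to 315 CPM in WT and 317 to 395 CPM in KI/KI hearts, and cardiomyocyte markers to 63643 to 72276 CPM and to 63942, 45394 and 56607 CPM. The part of these markers in the values of replicate 5 was not tested.

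**Figure D3:**
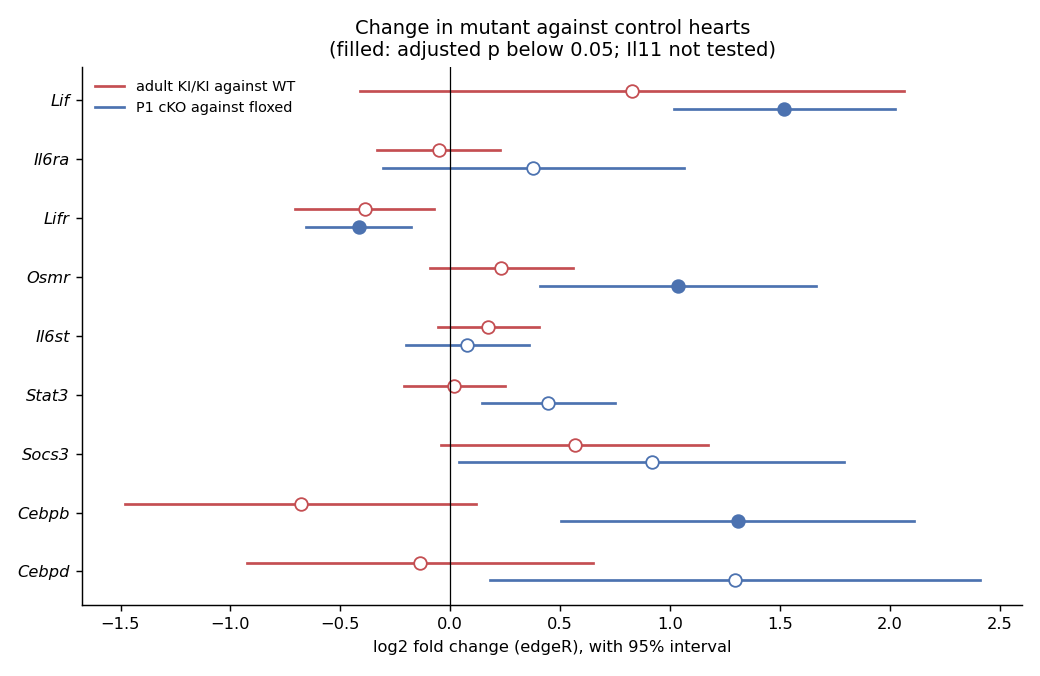
Log2 fold changes of the 9 tested members, adult KI/KI against WT in red and P1 cKO against floxed in blue. Circles are edgeR estimates, lines 95% intervals, and filled circles have an adjusted p under 0.05. Lif, Lifr, Osmr and Cebpb are filled for the P1 hearts and no circle is filled for the adult hearts.

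Whether the members changed differently in the 2 models was tested as an interaction in a fit of all 12 libraries. The models differ in mutation, age and the cells that are affected, which cannot be told apart. No member was called by edgeR, and 4 of the 9 tested had an unadjusted p under 0.05, as had 3147 of all 15729 genes. Of all 15729 genes, 1.27% were called for a higher and 1.17% for a lower change in KI/KI than in cKO hearts. Cebpb differed most, with a difference in log2 fold change, KI/KI minus cKO, of -1.99 (SE 0.52, edgeR, adjusted p = 0.0706), and DESeq2 called it (adjusted p = 0.00288). For Lifr, which was lower in both models, the difference was 0.02 with a 95% interval from -0.37 to 0.41. For Cebpd, Osmr and Stat3 the difference was -1.44, -0.81 and -0.43 (edgeR, adjusted p = 0.228, 0.184 and 0.179). Without cKO replicate 6, Cebpb, Osmr and Stat3 were called (adjusted p = 0.0284, 0.0369 and 0.0427), and without WT replicate 3 Cebpb was called (adjusted p = 0.0406).

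Among control hearts, 7 of the 9 tested members were higher in adult WT than in P1 floxed hearts and none was lower, against 31.0% and 32.5% of all genes tested. Groups did not overlap upward for the same 7, against 33.9% of all genes upward and 36.0% downward. WT and floxed mice differ in age and in the floxed allele, which cannot be told apart. Cebpb had the largest fold, 11.996 times higher in WT (log2 fold change 3.58, SE 0.40, edgeR, adjusted p = 1.44e-05). Cebpd was higher by 1.83, Il6ra by 1.42, Osmr by 1.09, Stat3 by 0.74, Il6st by 0.60 and Lifr by 0.52 on the log2 scale, and the largest adjusted p of the 7 was 0.00437, that of Cebpd. Lif (-0.30, adjusted p = 0.569) and Socs3 (0.25, adjusted p = 0.554) did not pass the test. All 7 calls held in each of the 18 alternatives run for this comparison, which did not include a fold threshold. The folds of Lifr, Il6st and Stat3 were 1.44, 1.52 and 1.67, under 2.

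Across the 4 groups the order of the mean CPM differed between members. For Lif the cKO group was the highest and did not overlap with the KI/KI group next to it, and the other neighbours overlapped. Il6ra and Il6st were lower in both P1 groups than in both adult groups, and neighbours of the same age overlapped. Osmr in cKO hearts, at a mean of 43.1 ± 15.1 CPM (SD, n = 3), overlapped with WT hearts, at 44.99 ± 6.90 CPM. Stat3 in cKO hearts, at 201 ± 29.5 CPM, also overlapped with WT hearts, at 248 ± 28.6 CPM, whereas Cebpb in cKO hearts, at 8.60 ± 3.62 CPM, stayed below the KI/KI group, at 26.3 ± 6.38 CPM. Lifr ran from 73.5 ± 6.97 CPM in cKO through 98.1 ± 3.80 in floxed and 107 ± 15.8 in KI/KI to 141 ± 19.6 CPM in WT hearts, and of these neighbours only cKO and floxed did not overlap.

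A list of 60 further genes of the pathway was read by role. In the P1 hearts 53 were tested, 7 (13.2%) rose and 1 (1.89%) fell, with a median log2 fold change of 0.12. Over all genes tested 9.32% rose and 7.57% fell. In the adult hearts 49 were tested and edgeR called none, with a median of 0.10. There 13 of the 49 had an unadjusted p under 0.05 in edgeR, as had 2363 of all 14592 genes tested. DESeq2 called 4 of the list, among them Timp1, Serpina3n and Cntfr, and 518 of all genes. Leaving out 1 P1 heart at a time left between 0 and 13 pathway genes called, 0 of them without floxed replicate 1, and 3, 4, 4, 2 and 13 without floxed replicates 2 and 3 and cKO replicates 4, 5 and 6. Of these 6 leave-outs, Junb and Myc stayed called in 5 each, Pim1 in 3, and Stat5a and Ccl2 in 2 each. Stat4, Cebpa and Timp1 stayed called in only 1 each. With all 12 libraries in one fit the P1 calls of Cebpa (adjusted p = 0.102) and Timp1 (adjusted p = 0.177) were lost.

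**Figure D4:**
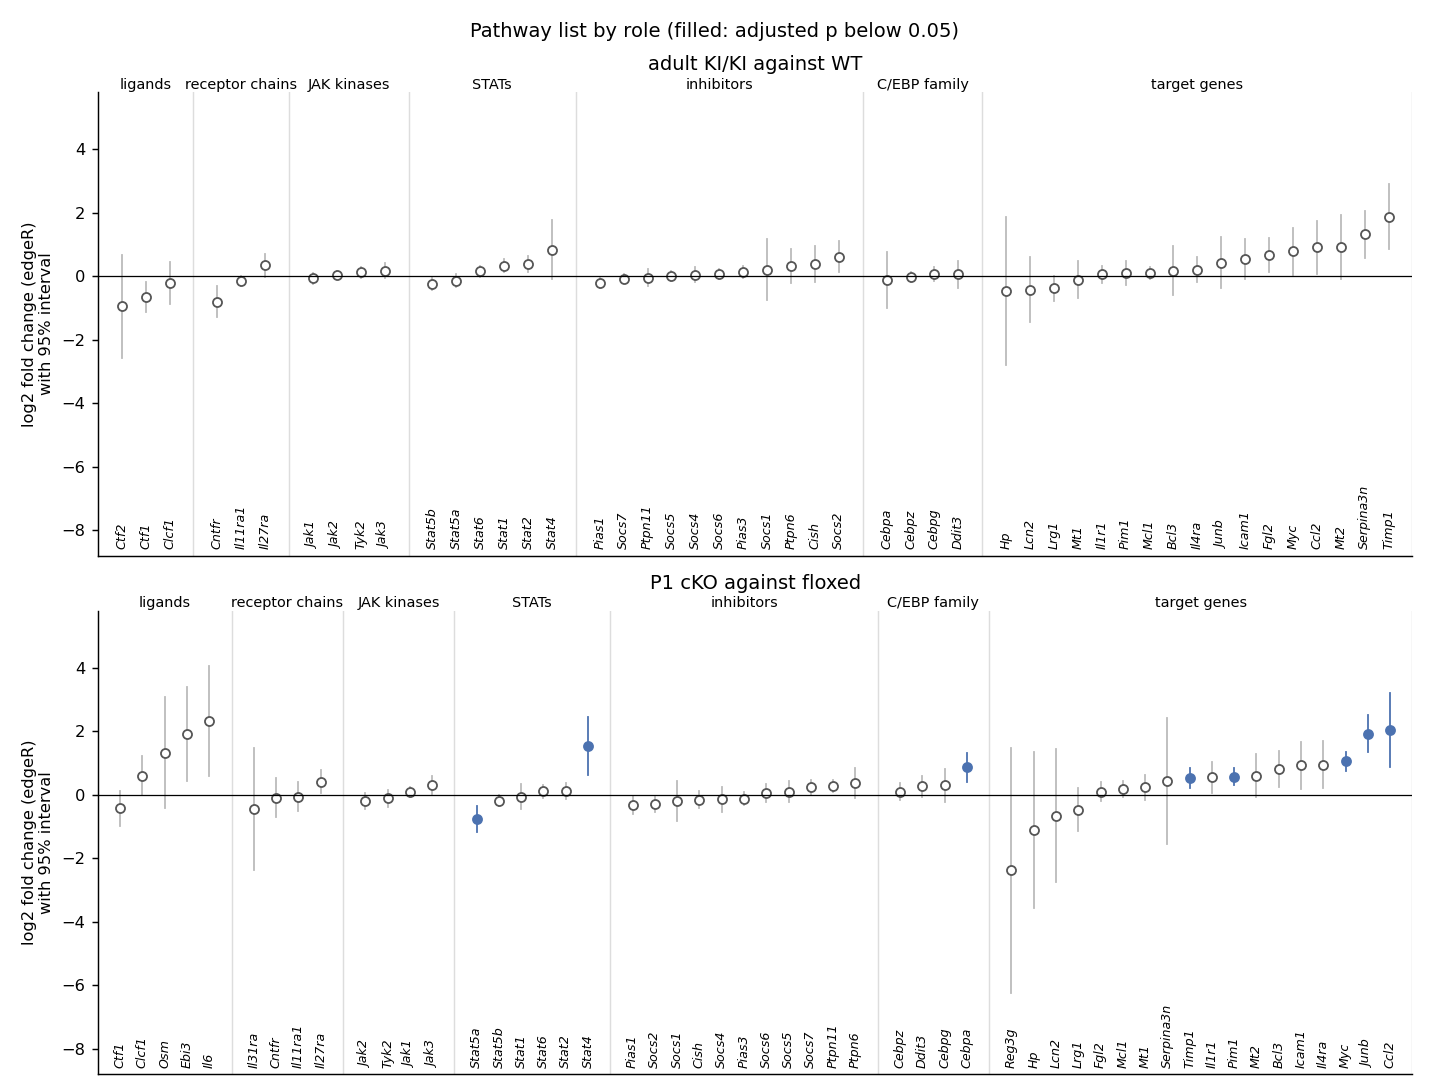
Log2 fold changes of the pathway list by role, adult KI/KI against WT above and P1 cKO against floxed below. Circles are edgeR estimates, lines 95% intervals, and filled circles have an adjusted p under 0.05. In the lower panel 8 genes are filled, 5 of them target genes, and in the upper panel none.

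Of 10 further ligands, 6 were tested in P1 and 4 in adult hearts, and none was called in either. Il6, the founding cytokine of the family, was at 0.189 ± 0.0820 CPM in floxed and 0.935 ± 0.663 CPM in cKO hearts, and the groups did not overlap (log2 fold change 2.34, SE 0.73, edgeR, adjusted p = 0.0697). DESeq2 called it (adjusted p = 0.0136). Osm, the ligand of Osmr, was at 0.124 ± 0.0879 and 0.303 ± 0.200 CPM in these groups (1.33, SE 0.74, adjusted p = 0.246). In adult hearts Ctf1, cardiotrophin-1, was at 8.55 ± 1.06 CPM in WT and 5.45 ± 1.39 CPM in KI/KI hearts (-0.65, SE 0.20, edgeR, adjusted p = 0.243).

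None of the 4 other receptor chains and none of the 4 Janus kinases was called in edgeR in either comparison. Cntfr, the chain for ciliary neurotrophic factor, was at 11.5 ± 1.16 CPM in WT and 6.62 ± 1.93 CPM in KI/KI hearts without overlap (log2 fold change -0.80, SE 0.21, edgeR, adjusted p = 0.228, DESeq2, adjusted p = 0.0253). The kinases Jak1, Jak2, Jak3 and Tyk2 had log2 fold changes between -0.21 and 0.31 in P1 and between -0.07 and 0.17 in adult hearts.

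Of the 6 other STAT genes, Stat4, known from interleukin-12 signalling in lymphocytes, rose and Stat5a fell in P1 hearts. Stat4 was at 0.509 ± 0.157 CPM in floxed and 1.45 ± 0.497 CPM in cKO hearts (log2 fold change 1.52, SE 0.39, edgeR, adjusted p = 0.0398). Stat5a was at 18.1 ± 3.45 CPM in floxed and 10.7 ± 1.48 CPM in cKO hearts and fell by 0.76 on the log2 scale (SE 0.17, edgeR, adjusted p = 0.0289). Of 11 further inhibitors, which include the other Socs genes, none was called in edgeR, and their log2 fold changes lay between -0.32 and 0.39 in P1 and between -0.20 and 0.61 in adult hearts.

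In the C/EBP family Cebpa, a factor of fat, liver and myeloid cells, rose in P1 hearts from 2.03 ± 0.321 to 3.70 ± 0.399 CPM (log2 fold change 0.86, SE 0.19, edgeR, adjusted p = 0.0282). The other 3 that were tested, Cebpg, Cebpz and Ddit3, had values between 0.10 and 0.31 in P1 hearts, and none was called.

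Of 20 genes known as targets of the pathway, 18 were tested in P1 hearts, and 5 rose and none fell, against 9.32% and 7.57% of all genes tested. The immediate early factor Junb went from 5.71 ± 0.420 CPM in floxed to 21.4 ± 6.28 CPM in cKO hearts (log2 fold change 1.92, SE 0.25, edgeR, adjusted p = 0.00723). The chemokine Ccl2, which attracts monocytes, went from 1.73 ± 0.0437 to 7.08 ± 4.55 CPM (2.05, SE 0.49, adjusted p = 0.0345), and Myc from 14.7 ± 0.771 to 30.5 ± 3.76 CPM (1.05, SE 0.13, adjusted p = 0.00674). The kinase gene Pim1 rose by 0.58 and Timp1, an inhibitor of matrix proteases, by 0.53 on the log2 scale (adjusted p = 0.0182 and 0.0384). These genes also respond to other signals. The log2 fold change was above 0 for 14 of the 18 targets. It was below 0 for 4, Lcn2, Hp, Lrg1 and Reg3g, at -0.65, -1.11, -0.46 and -2.38. Groups did not overlap upward for 10 of the 18 and downward for 0, against 19.9% and 19.1% of all genes tested. Bcl3, Il4ra, Icam1 and Il1r1, at 0.80, 0.94, 0.92 and 0.55, were called by DESeq2 but not by edgeR. Serpina3n and Mt1, at 0.43 and 0.23, did not pass the test.

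Of the same 20 targets, 17 were tested in adult hearts, and edgeR called none. The log2 fold change was above 0 for 13 of them. It was below 0 for 4, Lcn2, Hp, Lrg1 and Mt1, at -0.43, -0.46, -0.39 and -0.11. Timp1 was at 1.94 ± 0.288 CPM in WT and 7.04 ± 3.82 CPM in KI/KI hearts, and Serpina3n, an acute-phase protease inhibitor, at 8.43 ± 1.34 and 20.7 ± 9.11 CPM. Groups did not overlap upward for 3 of the 17, Timp1 and Serpina3n among them, and downward for 0. Over all genes tested these shares were 11.4% and 10.4%. The log2 fold changes of Timp1 and Serpina3n were 1.87 (SE 0.42, edgeR, adjusted p = 0.200) and 1.31 (SE 0.31, adjusted p = 0.206), and DESeq2 called both (adjusted p = 0.000442 and 0.00140).

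The genes whose pattern was most like that of a member were looked up by the root mean square difference of centred log2 CPM over the 12 hearts, among 15729 genes. The nearest to Osmr were Apoe at 0.203, C5ar1 at 0.206 and Synpo at 0.227, where Osmr itself had an SD of 0.562. For Socs3 they were Il4ra at 0.179, Smpd3 at 0.214 and Pdlim2 at 0.225, with an SD of 0.499 for Socs3. For Cebpd they were 4933431G14Rik at 0.367, Plscr2 at 0.381 and E030011O05Rik at 0.383, larger distances with a larger SD, 0.866 for Cebpd. Of these, 4933431G14Rik had few counts, at a mean of 0.0648 CPM in floxed and 0.158 CPM in cKO hearts, and was not tested in P1 hearts. These distances share libraries and are given as a description.

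Some member exons overlap exons of another gene on the opposite strand in the GENCODE annotation, by 72 bases for Stat3 with Stat5a, 312 for Cebpb with Tmem189, 562 for Cebpd with Spidr and 242 for Il6ra with Gm42809. The strand setting of the counting was not given in the sources used here, so reads from these stretches cannot be assigned with certainty.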

How the data were processed

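The authors sequenced polyadenylated whole-heart RNA, used Trim Galore for trimming and STAR 2.7.2b for alignment to mm10, and deposited unnormalized HTSeq counts per gene as whole numbers. Samples were grouped by the labels, and no column was left without a sample.

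Counts were tested in R 4.3.3 with edgeR 4.0.16 (TMM, filterByExpr, robust quasi-likelihood test, Benjamini-Hochberg adjustment over all tested genes). Each genotype comparison used its own 6 libraries. The interaction and the comparison of control groups used all 12. Standard errors come from the log2 fold change and the F statistic. CPM used TMM factors of all 12 libraries, and RPKM used union exon lengths of GENCODE vM21 (GRCm38), which may differ from the annotation the authors counted on. Library totals were 37063669 to 44789753, so a floor of 3 counts lies near the levels of Il11, and it covers counting error alone.

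The members and gene lists were chosen with earlier results of these data known. Named genes are the 10 members, genes of the 60-gene pathway list by role, and the 3 nearest genes to Osmr, Socs3 and Cebpd. Pathway genes singled out without a call were chosen after their values were seen. Alternatives were DESeq2 1.42.0, the RLE scaling, and the test with no filter or with a minimum of 10 counts per library. Each library was also left out in turn. The genotype comparisons further had 1 fit of all libraries and a fold above 2, and the comparisons over all 12 libraries a replicate block. A lung marker covariate was used for adult hearts alone, and a Y-linked covariate for P1 hearts alone. Legacy dispersions and the ratio of Osmr to Lifr were added after seeing the data. No 2 replicates held identical counts. Scripts were tested on simulated data. A gene of the pathway list is counted but not reported or plotted here.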

Additional observations from a re-analysis of the deposited data

How the results depend on the processing

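The limits are 3 mice per group, an unstated strand setting and groups that differ in marker levels. A further limit is cKO replicate 4, the only heart that read as female by Y-linked RNA and Xist. Lung marker sums were highest in P1 hearts, where no lung marker covariate was run, so their part in the P1 calls was not tested. With DESeq2, edgeR's 0 calls in adult hearts became 518 genes, 4 of them pathway genes, and 48 genes passed with all 12 libraries in one fit. In P1 hearts 4113 of all genes instead of 2587 passed with all libraries in one fit, 1647 with the Y-linked covariate and 710 with a fold above 2. The Y-linked covariate left 2 members and 4 pathway genes called in P1 hearts, the fold rule left 4 pathway genes, and DESeq2 called 14 pathway genes. For the difference between the models DESeq2 called 1310 genes and 1 member, against 383 and 0.

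Leaving out each heart in turn gave 0 to 56 genes in adult hearts, 160 to 3463 genes, 0 to 7 members and 0 to 13 pathway genes in P1 hearts, and 51 to 924 genes and 0 to 3 members for the difference between the models. No member was called in adult hearts under any of the 14 alternatives. In 10 of these 0 of all genes were called, so they could not have called a member.

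Signs turned only for log2 fold changes that were not called. With the lung marker covariate Cebpa in adult hearts was at 0.073, with the Y-linked covariate Il6ra was at -0.0075 and Il6st at -0.062 in P1 hearts, and in DESeq2 the difference between the models was -0.0016 for Lifr. Leaving out each heart in turn, adult values ran from -0.13 to 0.041 for Il6ra (above 0 without KI/KI replicate 5), from -0.063 to 0.088 for Stat3 (below 0 without WT replicate 3 or KI/KI replicate 5), from -0.41 to 0.29 for Cebpd (above 0 without WT replicate 1), from -0.42 to 0.40 for Cebpa (above 0 without WT replicate 3) and from -0.041 to 0.23 for Pim1 (below 0 without KI/KI replicate 5). In P1 hearts Il6st ran from -0.046 without cKO replicate 4 to 0.15. For the difference between the models Lifr ran from -0.081 to 0.12, turning without 6 of the 12 hearts, and Socs3 from -0.71 to 0.11, turning without cKO replicate 4. The cause was not tested.

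Replicate numbers are shared between WT and floxed and between KI/KI and cKO mice, which are different animals. The deviations of same-numbered hearts correlated between -0.54 and 0.21, so the numbers were not taken as pairs. With the replicate block 0 genes were called for the difference between the models, and 7 members stayed called for WT against floxed hearts. The genotype comparisons share no numbers, so no paired analysis was possible because their groups are numbered 1 to 3 and 4 to 6.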
